A study of Drosophila melanogaster with 6 samples.

Results

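Respiratory complex I genes of Drosophila melanogaster were described in sorted blood cells of 2 developmental stages. Members were all protein-coding genes of the deposited count table whose name starts with ND- (nuclear genes) or mt:ND (genes of the mitochondrial genome). The rule found 46 genes among 13395, of which 39 were nuclear and 7 mitochondrially encoded. Prepupal hemocytes (3 libraries) came from white prepupae and larval hemocytes (3 libraries) from wandering third-instar larvae, and the comparison asks which transcripts differ between the stages. Animals of both stages carried Hml-GAL4.delta and UAS-GFP. Hml-GAL4 drives GFP in hemocytes through the Hml promoter, so the sort selected GFP-positive cells and not all hemocytes. Hml RNA was far lower in the sorted prepupal cells than in the larval ones (values below). Whether the promoter was still active in the sorted prepupal cells was not tested. The labels do not say how many animals were pooled in a library, nor whether the replicates were separate collections, so the p-values measure only the spread between these libraries, which may be technical.

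Complex I (NADH:ubiquinone oxidoreductase) is the entry point of the mitochondrial respiratory chain: it takes electrons from NADH, passes them through iron-sulfur clusters to ubiquinone and pumps protons across the inner membrane. A matrix arm holds the NADH and ubiquinone sites and a membrane arm does the pumping. The enzyme is built from 2 genomes, because the central membrane subunits are encoded in mitochondrial DNA and all other subunits in the nucleus, and accessory subunits surround the conserved core. Roles below follow the mammalian counterpart of each fly gene.

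The libraries held 19228352 to 22110219 counts in prepupae and 21038176 to 25958543 counts in larvae. Values below are CPM, counts per 1000000 of a library's total after TMM scaling, and log2 fold changes are prepupal over larval. Genes were called at a false discovery rate (FDR) below 0.05 in edgeR's quasi-likelihood test over all 7914 genes with enough counts. Hml itself had 148.6 ± 87.6 CPM in prepupae and 4909 ± 1592 CPM in larvae (SD, n = 3 each, log2 fold change -5.05). In prepupae 7 of 8 plasmatocyte markers and 4 of 4 crystal cell markers fell, against 27.3% of all tested genes. The other plasmatocyte marker, crq, rose (0.95). The crystal cell markers peb and PPO1 lost their calls in at least 1 fit without a library (highest FDR 0.15 and 0.065). With the length trend removed peb was not called (FDR 0.11). These 3 were named after their values were seen. The plasmatocyte markers still summed to 4160 to 6710 CPM in prepupae and 16500 to 24900 CPM in larvae, and the crystal cell markers to 555 to 1470 CPM in prepupae and 2050 to 3210 CPM in larvae. The 4 lamellocyte markers summed to 70.2 to 83.3 CPM in prepupae and 651 to 912 CPM in larvae, but went opposite ways: cher, a filamin, averaged 18.4 CPM in prepupae and 771 CPM in larvae, while PPO3 averaged 56.8 CPM in prepupae and 23.2 CPM in larvae (both called; ItgaPS4 was not called and atilla not tested; named after their values were seen). Markers of other tissues were low: the 7 muscle genes summed to 7.92 to 11.3 CPM in prepupae and 8.21 to 11.7 CPM in larvae, the 6 salivary gland genes to 6.52 to 9.81 CPM in prepupae and 6.39 to 9.01 CPM in larvae, and the 6 fat body genes to 27.0 to 34.8 CPM in prepupae and 27.8 to 33.9 CPM in larvae. The fat body genes went different ways: Fbp2 (1.53) and Fbp1 (0.69) rose, Lsp1gamma (-0.46) fell, and Lsp1beta and Lsp2 were not called. Fbp1 and Lsp1gamma lost their calls in at least 1 fit without a library (highest FDR 0.11 and 0.098). All fat body genes were named after their values were seen. Of 6 testis genes, Mst87F alone reached the filter. The testis list summed to 13.7 to 14.3 CPM in prepupae and 1.03 to 1.68 CPM in larvae. The part of these differences in cell makeup in the complex I values was not tested, and in bulk RNA fewer cells of a type and less RNA per cell cannot be told apart.

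Complex I transcripts were more abundant in prepupal hemocytes across both genomes. Of 32 nuclear genes tested, 25 rose and 7 were not called, against 26.6% of all tested genes that rose. Of 7 mitochondrially encoded genes, 6 rose and 1 was not called. None fell in edgeR at the FDR threshold or at an unadjusted p under 0.05, since all 39 had a positive log2 fold change, and none fell in DESeq2, whereas 27.3% of all tested genes fell. The median log2 fold change was 0.58 for the nuclear and 0.83 for the mitochondrial genes, and -0.03 over all tested genes. A rise of at least 2-fold was called for 6 nuclear and 2 mitochondrial genes (7.85% of all tested genes). The 32 and the 6 include ND-MLRQ (log2 fold change 1.07), whose mammalian counterpart later structural work placed in complex IV. The lowest prepupal value exceeded the highest larval one for 27 of 32 nuclear and 6 of 7 mitochondrial genes, as for 31.2% of all tested genes.

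The remaining 7 members, all nuclear, did not reach the count filter. ND-51L1 had 0 to 7 counts per library, and ND-51L2, ND-24L, ND-B14.5AL, ND-49L and ND-20L had 0 to 3. These 6 are named as "like" copies of ND-51, ND-24, ND-B14.5A, ND-49 and ND-20, so reads from stretches shared with those genes, if any, could have been counted elsewhere. The seventh, ND-B8, is the counterpart of mammalian NDUFA2, an accessory subunit of the matrix arm, and had 3, 0 and 1 counts in prepupae and 0, 3 and 0 counts in larvae. It shares 71 of its 460 bp of exon with Gs1l on the opposite strand, which had 219 to 386 counts per library. Most of the exonic bases of ND-B8 are thus not shared with Gs1l, and the part of this overlap in the low counts was not tested. ND-B17.2, another accessory subunit of that arm, had 71.5 to 88.2 CPM in prepupae and 40.2 to 53.6 CPM in larvae.

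Among the core subunits of the matrix arm, 3 of 7 rose, against 26.6% of all tested genes. The group's log2 fold changes lay between 0.13 and 0.47 (median 0.28). ND-51, which binds NADH and the flavin FMN, had 141, 147 and 137 CPM in prepupae and 102, 114 and 105 CPM in larvae (log2 fold change 0.41 ± 0.10, SE; FDR 0.0085, edgeR). All prepupal values of ND-51 lay above all larval ones. ND-30, a scaffold of the ubiquinone-reducing module, had 121, 136 and 117 CPM in prepupae against 88.8, 99.8 and 81.5 CPM in larvae (0.47 ± 0.12, FDR 0.0080), and ND-23, which carries iron-sulfur clusters, had a log2 fold change of 0.42 (FDR 0.011). The groups did not overlap for either gene, although ND-23 missed the threshold without larval replicate 1 (0.40, FDR 0.053).

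The other 4 core genes were not called. ND-75, the largest subunit and an iron-sulfur protein, had 216, 198 and 194 CPM in prepupae and 171, 183 and 160 CPM in larvae (0.24 ± 0.11, FDR 0.076). Its groups did not overlap, and it passed with the replicate numbers as a block (FDR 0.038). ND-20, another iron-sulfur subunit, had a log2 fold change of 0.28 (FDR 0.089, 0.023 with the block), and ND-24 one of 0.21 (FDR 0.16). Without larval replicate 2 all 3 passed (FDR 0.033 for ND-75, 0.013 for ND-20 and 0.029 for ND-24). ND-49, which lines the ubiquinone site, stood lowest of all 39 with 111, 121 and 135 CPM in prepupae and 108, 121 and 105 CPM in larvae (0.13 ± 0.12, FDR 0.35). Its prepupal and larval values were interleaved.

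Of the accessory subunits of the matrix arm, 6 of 7 tested rose (0.28 to 1.13, median 0.61), against 26.6% of all tested genes. ND-B14.5A, the counterpart of mammalian NDUFA7, had 51.9, 62.8 and 44.7 CPM in prepupae and 23.8, 27.3 and 21.8 CPM in larvae, a 2.19-fold difference (log2 1.13 ± 0.15, FDR 0.0003). Its lowest prepupal library held well over its highest larval one. ND-13A, a zinc-binding subunit, rose by a log2 fold change of 0.89, ND-B17.2 (NDUFA12 in mammals) by 0.80 and ND-39 (NDUFA9) by 0.61. ND-39 was the most abundant nuclear member in prepupae, with 210, 220 and 191 CPM there and 124, 150 and 131 CPM in larvae.

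The calls of ND-18 and ND-13B were lost in several fits with 1 library left out, at log2 fold changes of 0.26 to 0.29 for ND-18 and 0.29 to 0.37 for ND-13B. ND-18, the counterpart of NDUFS4, had 49.6, 49.5 and 50.4 CPM in prepupae and 40.8, 43.0 and 38.8 CPM in larvae (0.28 ± 0.11, FDR 0.044), and the call was lost without larval replicate 1 or 3 (FDR 0.13 each) or prepupal replicate 1, 2 or 3 (0.086, 0.085 and 0.093). ND-13B (0.34 ± 0.11, FDR 0.029) lost it without larval replicate 1 or 3 (0.12 and 0.090) or prepupal replicate 1, 2 or 3 (0.050, which is just past the threshold, 0.096 and 0.051). ND-B14, which belongs to the LYR protein family, had a log2 fold change of 0.32 (FDR 0.066, 0.032 with the block), and its groups overlapped. It passed without larval replicate 2 (0.016) or prepupal replicate 1 (0.043).

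**Figure D1:**
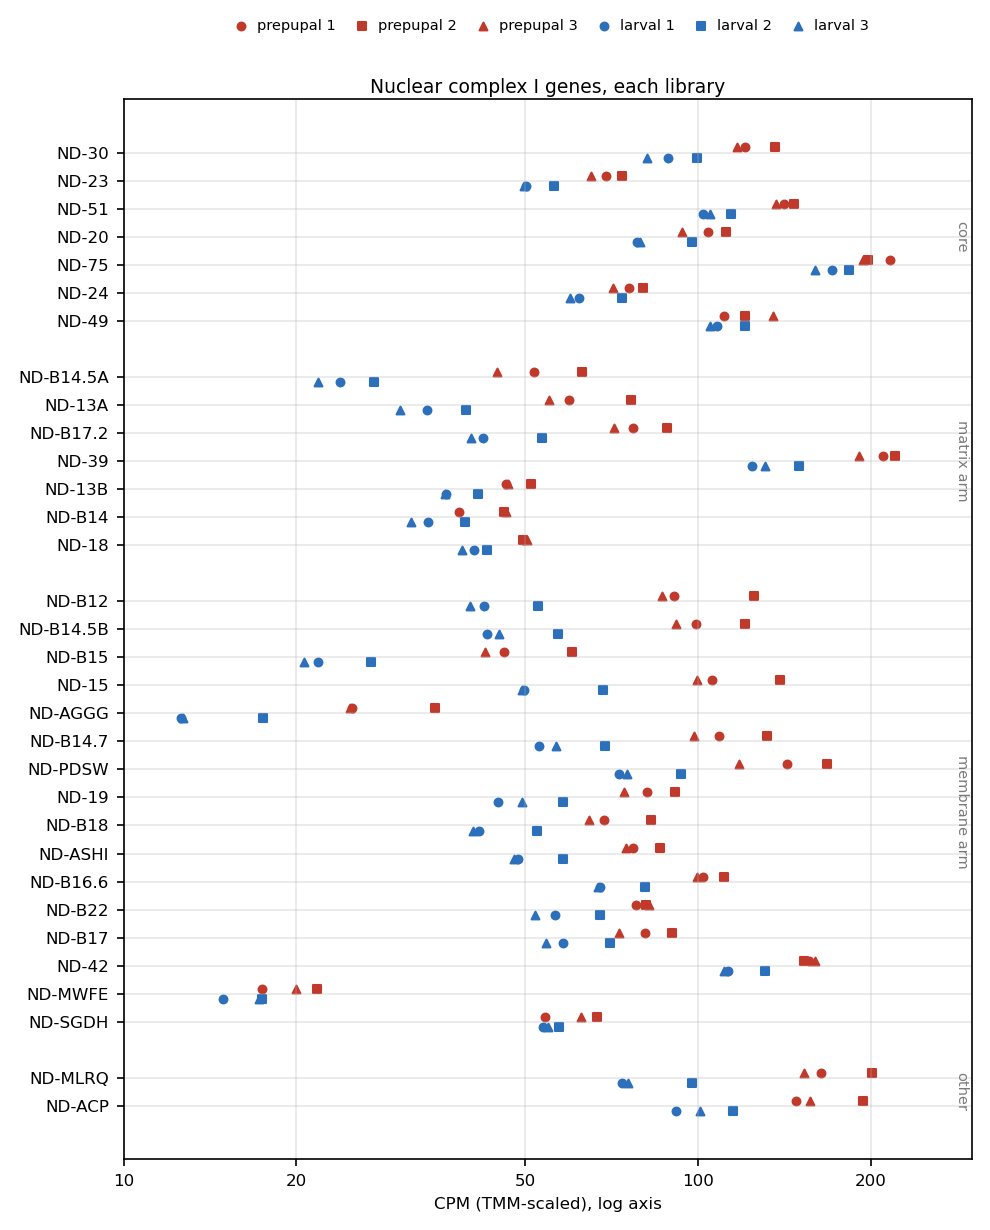
CPM of the 32 tested nuclear complex I genes on a log axis, 1 row per gene, grouped by place in the complex and ordered by fold change within each group. Red points are the 3 prepupal and blue points the 3 larval libraries; for 27 genes all red points lie right of all blue ones, while ND-49, ND-24, ND-20, ND-B14 and ND-SGDH overlap.

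Of the membrane arm accessory subunits, 14 of 16 rose, against 26.6% of all tested genes. Their log2 fold changes lay between 0.15 and 1.16 (median 0.69). ND-B12, the counterpart of mammalian NDUFB3, had 90.9, 125 and 86.6 CPM in prepupae and 42.5, 52.7 and 40.1 CPM in larvae, a 2.23-fold difference (log2 1.16 ± 0.17, FDR 0.00044). The gene spans 21658078 to 21658777 on chromosome arm 2R (BDGP6, plus strand) with 606 bp of exons in 4 blocks. ND-B14.5B (NDUFC2) had 99.4, 121 and 91.4 CPM in prepupae and 42.9, 57.0 and 45.0 CPM in larvae (1.11 ± 0.15, FDR 0.00033). For both genes the prepupal and larval libraries were far apart.

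ND-B15 (NDUFB4) had 46.0, 60.3 and 42.6 CPM in prepupae against 21.8, 27.0 and 20.6 CPM in larvae (1.10 ± 0.16, FDR 0.0005). ND-15 (NDUFS5, which faces the intermembrane space) had 106, 139 and 99.5 CPM in prepupae against 49.7, 68.3 and 49.4 CPM in larvae (1.04 ± 0.17, FDR 0.00089). ND-AGGG (NDUFB2) rose by 0.99, ND-B14.7 (NDUFA11) by 0.93, ND-PDSW (NDUFB10) by 0.83, ND-19 (NDUFA8) by 0.70, ND-B18 (NDUFB7) by 0.68, ND-ASHI (NDUFB8) by 0.62, ND-B16.6 (NDUFA13) by 0.54 and ND-B22 (NDUFB9) by 0.46 on the log2 scale. The groups did not overlap for any gene of this paragraph.

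ND-42 (NDUFA10) had 156, 153 and 160 CPM in prepupae and 113, 131 and 111 CPM in larvae (0.40 ± 0.11, FDR 0.011), and ND-B17 (NDUFB6) had a log2 fold change of 0.42 (FDR 0.025). Without larval replicate 1 the FDR was 0.056 for ND-42, 0.050 for ND-B22 (just past the threshold) and 0.088 for ND-B17, and ND-B17 also lost its call without larval replicate 3 (0.085) or prepupal replicate 1 or 2 (0.058 and 0.093). ND-MWFE (NDUFA1) had 17.4 to 21.7 CPM in prepupae and 14.9 to 17.4 CPM in larvae (0.26 ± 0.14, FDR 0.14), with its lowest prepupal library barely above its highest larval one. ND-SGDH (NDUFB5) had 54.2, 66.7 and 62.6 CPM in prepupae and 53.8, 57.4 and 54.8 CPM in larvae (0.15 ± 0.12, FDR 0.32), and its groups overlapped.

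Another pair of genes fits neither arm alone. ND-ACP, the mitochondrial acyl carrier protein, is bound in both arms and also serves fatty acid synthesis. It had 148, 194 and 157 CPM in prepupae and 91.6 to 115 CPM in larvae (0.69 ± 0.14, FDR 0.0023). ND-MLRQ is the counterpart of mammalian NDUFA4, which later structural work placed in complex IV. It had 164, 201 and 153 CPM in prepupae and 73.9, 97.7 and 75.5 CPM in larvae (1.07 ± 0.15, FDR 0.00038), and neither gene's groups overlapped.

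The 7 mitochondrially encoded subunits form the core of the membrane arm. mt:ND3, a small membrane subunit near the junction of the arms, stood highest of all 39 in fold change. It had 99.0, 83.9 and 195 CPM in prepupae and 44.0, 57.4 and 29.7 CPM in larvae, a 2.88-fold difference (log2 1.53 ± 0.32, FDR 0.0032). mt:ND1, which forms part of the ubiquinone channel, had 372, 286 and 513 CPM in prepupae and 197, 241 and 142 CPM in larvae (1.01 ± 0.23, FDR 0.0050). The groups did not overlap for either gene, but in both prepupal replicate 3 was the highest and larval replicate 3 the lowest of all 6 libraries.

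mt:ND2, mt:ND4 and mt:ND5 resemble antiporters and carry the proton channels. mt:ND5 had 702, 634 and 776 CPM in prepupae and 474, 489 and 445 CPM in larvae (0.58 ± 0.12, FDR 0.0026), with a narrow spread in both stages. mt:ND2 had 88.4, 127 and 119 CPM in prepupae and 53.9, 50.8 and 71.0 CPM in larvae (0.93 ± 0.17, FDR 0.0016). mt:ND4 had 415, 321 and 661 CPM in prepupae and 272, 319 and 202 CPM in larvae (0.82 ± 0.25, FDR 0.021). Its prepupal replicate 2 lay barely above larval replicate 2, and the call was lost without prepupal replicate 3 (0.48, FDR 0.087) or larval replicate 3 (0.67, FDR 0.054).

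mt:ND6 and mt:ND4L are small core membrane subunits. mt:ND6 had 23.2, 43.8 and 36.1 CPM in prepupae and 18.8, 17.3 and 21.8 CPM in larvae (0.83 ± 0.21, FDR 0.0086), and its groups did not overlap. mt:ND4L had 6.8, 13.9 and 17.9 CPM in prepupae and 7.0, 6.0 and 12.3 CPM in larvae (0.62 ± 0.36, FDR 0.17), and prepupal replicate 1 fell among the larval values. It passed without prepupal replicate 1 (0.93, FDR 0.032) or larval replicate 3 (1.01, FDR 0.033).

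**Figure D2:**
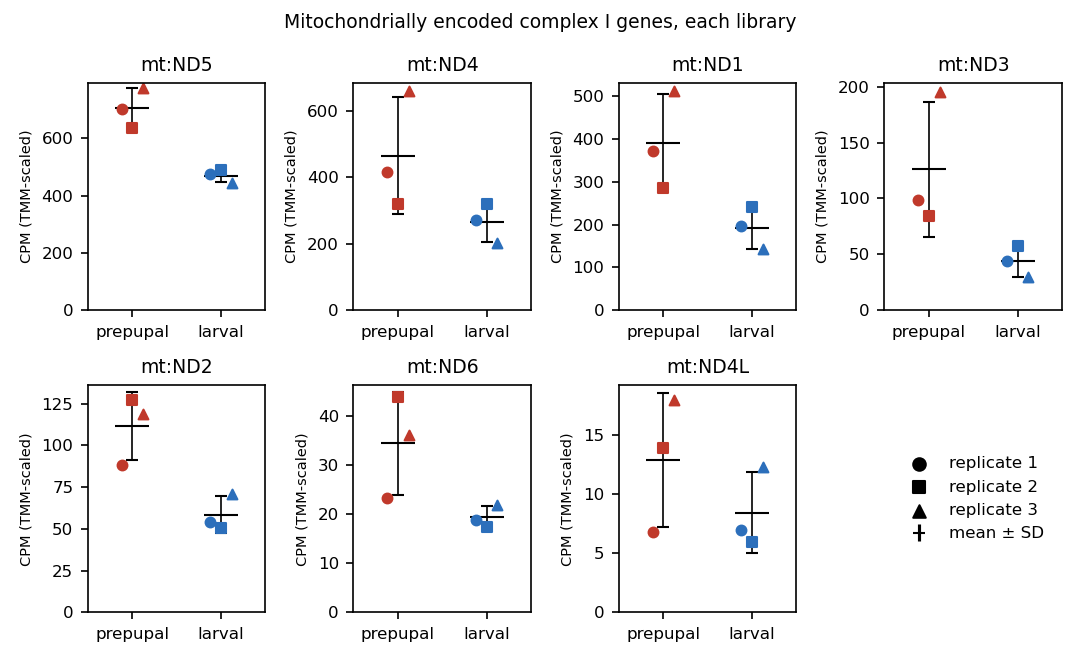
CPM of the 7 mitochondrially encoded complex I genes in each library, prepupal (red) left of larval (blue), with the mean and SD as black lines (n = 3 per stage). The stages overlap only for mt:ND4L; prepupal replicate 3 is the highest prepupal library for mt:ND1, mt:ND3, mt:ND4, mt:ND4L and mt:ND5.

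The mitochondrial genes differed widely in counts per kilobase among themselves. Per kilobase of exon, mt:ND1 had 416 CPM in prepupae and 206 in larvae, mt:ND5 had 410 in prepupae and 273 in larvae, mt:ND3 had 356 in prepupae and 123 in larvae, and mt:ND4 had 348 in prepupae and 197 in larvae. mt:ND2 stood lower, with 109 CPM per kilobase in prepupae and 57.2 in larvae. So did mt:ND6 with 65.5 in prepupae and 36.8 in larvae, and mt:ND4L with 44.3 in prepupae and 28.9 in larvae. mt:ND4 and mt:ND4L lie side by side on the same strand and share 1 bp. Whether the way short or adjacent genes were counted had a part in these values was not tested, so they may not give transcript levels. The tested nuclear genes spanned 23.4 to 320.5 CPM per kilobase of exon in prepupae (median 83.6) and 19.2 to 153.1 in larvae (median 63.4). ND-MLRQ was the highest nuclear gene on this scale and ND-MWFE and ND-AGGG were among the lowest. mt:ND1, mt:ND4, mt:ND4L and mt:ND5 are annotated on the minus strand and mt:ND2, mt:ND3 and mt:ND6 on the plus strand. Genes of high and of low counts per kilobase were thus annotated on both strands. The libraries were not stranded, so the strand that a read came from is not known.

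Summed over members, nuclear complex I transcripts made up 3019, 3421 and 2902 CPM in prepupae and 1955, 2331 and 1942 CPM in larvae. The mitochondrial members summed to 1706, 1510 and 2318 CPM in prepupae and 1066, 1180 and 924 CPM in larvae. Neither sum overlapped between the stages. As a share of all counts, the nuclear genes took 0.279 to 0.313% in prepupae and 0.207 to 0.244% in larvae, and the mitochondrial genes 0.138 to 0.223% in prepupae and 0.102 to 0.124% in larvae.

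The balance between the genomes did not separate the stages. The log2 ratio of mitochondrial to nuclear complex I counts was -0.82, -1.18 and -0.32 in prepupae and -0.88, -0.98 and -1.07 in larvae (means -0.78 ± 0.43 and -0.98 ± 0.10, SD, n = 3 each). The difference of 0.20 was smaller than the prepupal SD. It was -0.03 without prepupal replicate 3, 0.40 without prepupal replicate 2, and 0.56 when medians over genes replaced the sums. Within same-numbered pairs, prepupal minus larval, the ratio differed by 0.05, -0.20 and 0.75, and the difference was not tested because the members were chosen with earlier results known.

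**Figure D3:**
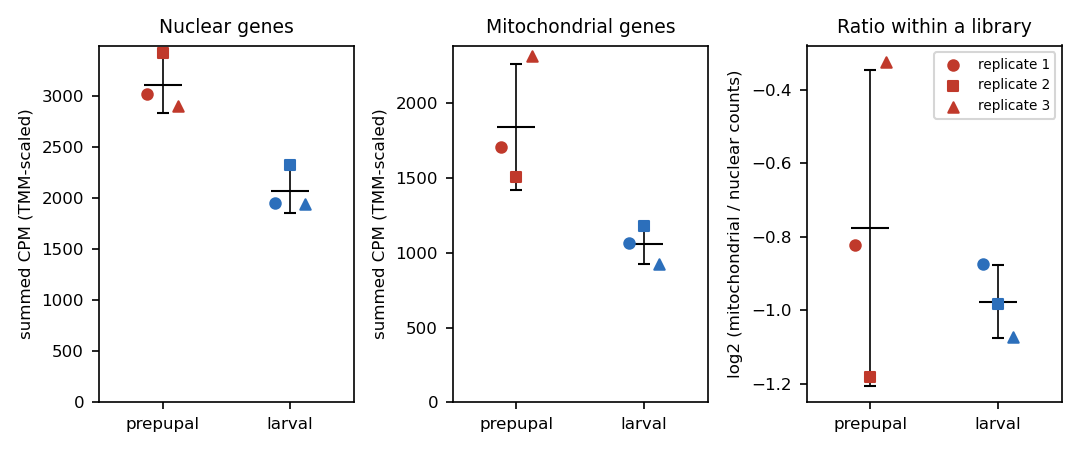
Summed CPM of the nuclear and of the mitochondrially encoded complex I genes, and the log2 ratio of mitochondrial to nuclear counts, in each library, prepupal left of larval; black lines give mean and SD (n = 3). Both sums are higher in every prepupal library, while the ratio ranges from -1.18 to -0.32 in prepupae and overlaps the larval range of -1.07 to -0.88.

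The 2 gene classes varied differently between replicates. The median coefficient of variation was 10.4% in prepupae and 11.4% in larvae for the 32 nuclear genes, and 30.3% in prepupae and 22.3% in larvae for the 7 mitochondrial genes. The nuclear genes moved together between libraries. Prepupal replicate 2 was the highest prepupal library for 26 of 32 nuclear genes, and larval replicate 2 was the highest larval library for all 32. The share of all tested genes with this order is not given here, so the order cannot be called particular to complex I. Replicate 2 was also the highest library of both stages for ox of complex III, but the lowest of both for blw of ATP synthase. Replicate 2 also had the lowest Hml level of its stage, with 83.8 CPM against 248.2 and 113.7 CPM in the other prepupal libraries and 3206 CPM against 5161 and 6361 CPM in the other larval libraries. What part Hml level or cell makeup had in this order was not tested. The mitochondrial genes followed another order in prepupae, where replicate 3 was highest for 5 of 7 but lowest for 23 of 32 nuclear genes. In larvae the order was partly shared. Larval replicate 3 was lowest for 20 of 32 nuclear and 4 of 7 mitochondrial genes. Larval replicate 2 was highest for 4 of 7 mitochondrial genes and lowest for 3.

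Gene length moved with the stage difference. Over 7873 genes with a known exonic length, the log2 fold change fell with length (Spearman correlation across genes -0.40, a description, since genes share libraries), and within the 32 nuclear members the correlation was -0.49. The nuclear members were short, with a median of 857.5 bp of exons against 2083 bp over all genes. When the length trend of each library was removed, 20 nuclear members rose, none was called lower, and the median log2 fold change was 0.37, with 29.3% of all genes rising. Of the mitochondrial genes, 5 rose (median 0.67) and mt:ND6 was no longer called (0.28, FDR 0.24). With the replicate block in the same fit as the length trend, 20 nuclear genes rose, but of the mitochondrial genes mt:ND2 and mt:ND5 alone (mt:ND3 0.91, FDR 0.080, and mt:ND1 0.70, FDR 0.063).

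The length adjustment touched the subunit groups unevenly. After it 2 of 7 core genes rose (median 0.16), 4 of 7 matrix arm accessory genes (0.38) and 12 of 16 membrane arm accessory genes (0.44). Of all genes 29.3% rose in that fit (median 0.07), so the share of core genes called was near that over all genes. ND-75, the longest member with 2634 bp, gained a call (0.46, FDR 0.0042). ND-30 (0.19), ND-B22 (0.13), ND-B17 (0.15), ND-23 (0.05), ND-13B (-0.16) and ND-18 (-0.11) lost theirs. Negative values, none of them called, were given by 6 genes: ND-SGDH, ND-B14, ND-13B, ND-18, ND-MWFE and ND-24. ND-15 (0.84), ND-B14.5A (0.75) and ND-B14.5B (0.71) had the largest nuclear values and mt:ND3 (1.02) the largest of all 39. What set the length trend was not tested.

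**Figure D4:**
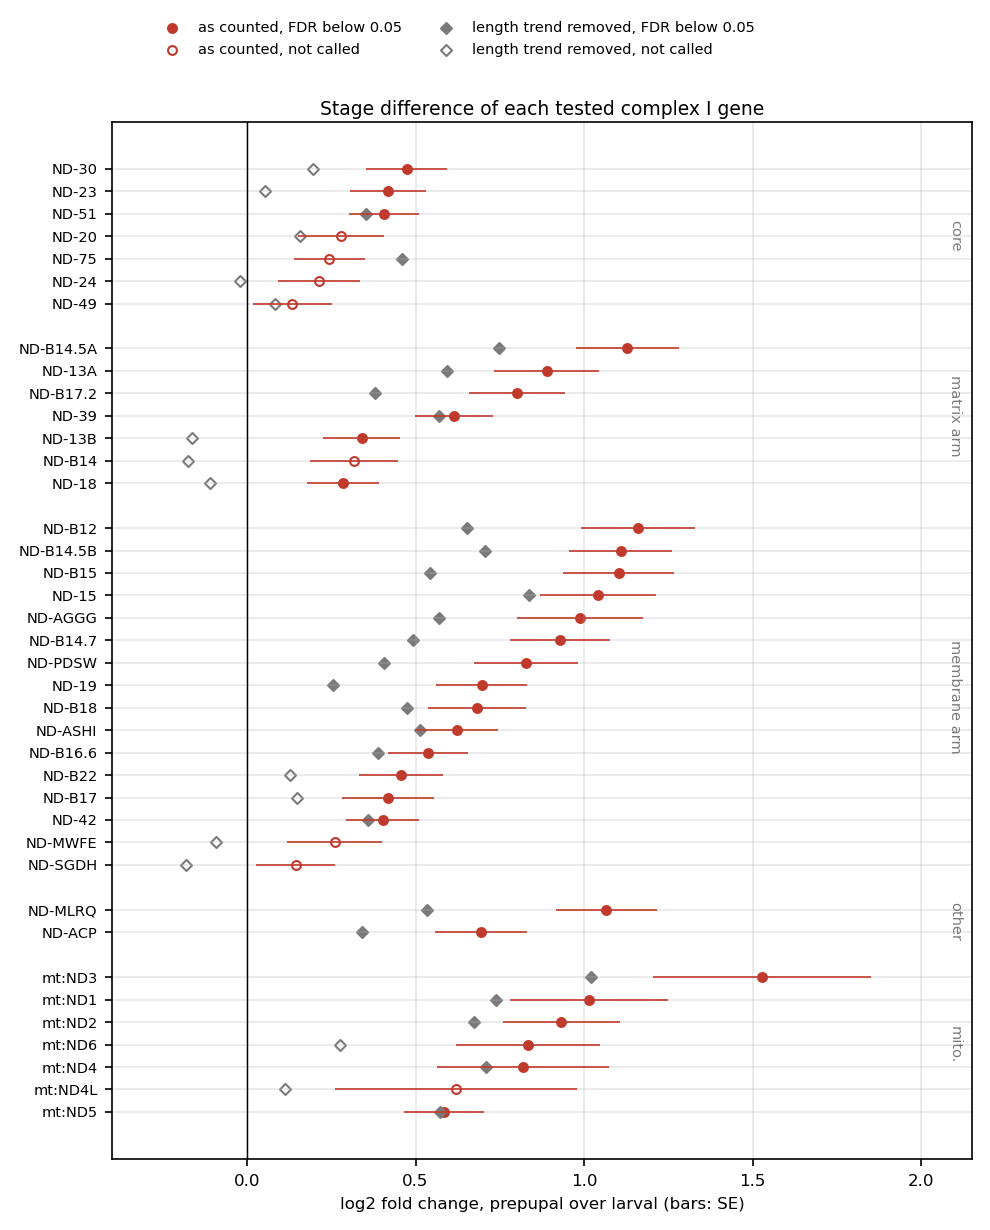
Log2 fold change, prepupal over larval, of each of the 39 tested complex I genes, grouped by place in the complex. Red circles with SE bars are values as counted and grey diamonds values after the length trend of each library was removed; filled symbols passed an FDR of 0.05. All circles lie right of 0, and 6 nuclear diamonds lie left of it.

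**Figure D5:**
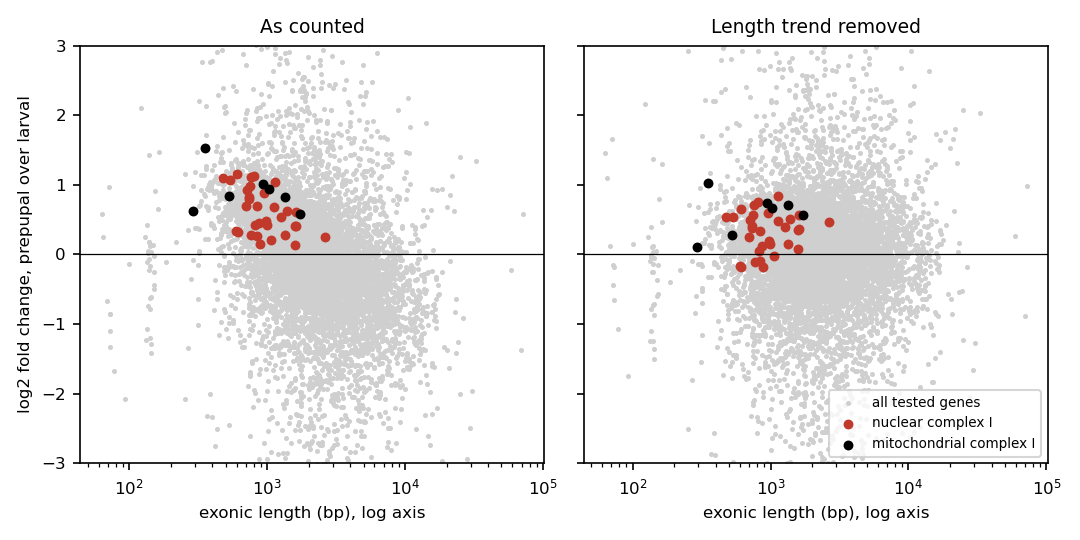
Log2 fold change, prepupal over larval, against exonic length on a log axis for all tested genes with a length (grey), nuclear complex I genes (red) and mitochondrially encoded complex I genes (black), as counted (left) and with the length trend removed (right); values beyond -3 and 3 lie outside the axes. The members sit among the shorter genes, and the grey cloud tilts down with length in the left panel only.

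The scaling of the libraries mattered for the smaller differences. Scaled to total counts alone, which shifted the median gene to -0.22, 17 nuclear and 5 mitochondrial members rose against 18.4% of all tested genes. All 7 core genes then missed the threshold, and ND-49 (-0.06) and ND-SGDH (-0.05) turned negative without a call. ND-B22, ND-B17, ND-42, ND-13B and ND-18 also missed it, as did mt:ND4 (0.64, FDR 0.063). ND-B12, ND-B14.5A, ND-B14.5B, ND-B15, ND-MLRQ and ND-15 were called under both scalings. With the replicate block, ND-75, ND-20 and ND-B14 joined the called genes, giving 28.

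Some members share exonic bases with a neighbour on the other strand, and the libraries were not stranded, so reads of the shared bases cannot be told apart. ND-MWFE shares 167 bp with TppII, which had 3192 to 6812 counts per library against 310 to 439 for ND-MWFE. It also shares 128 bp with Nrk on its own strand, which had 143 to 318 counts per library. ND-ASHI shares 77 bp with Fum1, which had 5230 to 8740 counts per library against 1113 to 1735 for ND-ASHI. ND-B22 shares 227 bp with CG31855, ND-B16.6 shares 221 bp with CG3847, and ND-15 shares 178 bp with Pus10. Further members overlap a neighbour too, among them ND-13A (118 bp with CG4230), ND-51 (97 bp with CG34180) and ND-B18 (91 bp with opm). The sources used here do not give how such reads were counted, and the values of these genes are therefore less certain.

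Complex I was set beside the rest of the respiratory chain. Of 35 nuclear genes of complexes II to V and cytochrome c, 27 rose, 2 fell and 6 were not called. Over all tested genes 26.6% rose and 27.3% fell. The median log2 fold change of the 35 was 0.57, beside 0.58 for the nuclear complex I genes, ND-MLRQ among them. The largest rises of each list were SdhC of complex II (0.71), ox of complex III (1.14), the mitochondrially encoded oxidase subunit mt:CoII in complex IV (1.04), ATPsynF of ATP synthase (0.96) and cytochrome c itself (Cyt-c-p, 1.06). The 2 that fell belong to ATP synthase: blw, its alpha subunit, had a log2 fold change of -0.41 and ATPsynC, the ring subunit, one of -0.29 (named after their values were seen, and both lost in at least 1 fit without a library, with FDR up to 0.098 for blw and 0.16 for ATPsynC). Of the other mitochondrially encoded mRNAs, mt:Cyt-b (1.08), mt:CoI (0.96), mt:CoII (1.04), mt:CoIII (0.95) and mt:ATPase6 (0.89) rose, and mt:ATPase8 (0.65, FDR 0.12) was not called. With the length trend removed, 21 nuclear genes of this list rose and 3 fell: blw (-0.26, FDR 0.069) was no longer called, and COX6B (-0.43, FDR 0.0043) and ATPsynE (-0.43, FDR 0.0064), both named after their values were seen, joined ATPsynC among those that fell. SdhB, SdhD, UQCR-Q, COX8, cype, levy, ATPsynCF6 and mt:ATPase6 (0.46, FDR 0.11) lost their calls and SdhA gained one (also named after their values were seen, except mt:ATPase6).

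These other mitochondrial mRNAs summed to 10590 ± 802 CPM in prepupae and 5373 ± 1494 CPM in larvae (SD, n = 3 each, log2 of the ratio of means 0.98), beside 1845 ± 421 CPM in prepupae and 1057 ± 128 CPM in larvae for the complex I mRNAs (0.80). The large mitochondrial ribosomal RNA had 49150 ± 3035 CPM in prepupae and 24460 ± 5712 CPM in larvae (1.01). NP15.6, a complex I gene that lacks the ND prefix, rose (0.57, FDR 0.0051), but not with the length trend removed (0.10, FDR 0.43). The assembly factors sicily (0.30, FDR 0.085, 0.049 with the block) and CIA30 (0.19, FDR 0.26) were not called, and neither was CG3262, the remaining gene of that list (0.16, FDR 0.24), which passed with the length trend removed (0.71, FDR 0.0065). These 3 were named after their values were seen.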

How the data were processed

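The authors sorted GFP-positive hemocytes, made unstranded mRNA libraries and deposited raw counts per gene; their methods name trimmomatic, STAR and the dm6 genome (BDGP6), and the submitters' processing notes add featureCounts. The sources used here do not give the strand setting of the counting. Depth was 19228352 to 25958543 counts per library, and fewer counts widen the error of low genes.

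Starting from the deposited counts, edgeR 4.0.16 (R 4.3.3) was used with TMM factors and filterByExpr at its minimum count of 10. Each gene was tested by quasi-likelihood, and p-values were adjusted over all tested genes after Benjamini and Hochberg. Scripts were tested on simulated data. Exonic lengths came from an Ensembl annotation in which 99.7% of the genes had identical coordinates, and length trends were fitted by loess (span 0.5). Alternatives were DESeq2 1.42.0, its size factors, total counts, mitochondrial genes left out of scaling, no filter, length trend removed, a replicate block and each library left out. Same-numbered libraries deviated together (correlations 0.28, 0.30 and 0.10, each over 0.1), so the block was read as pairing. For larval replicate 3 the highest correlation with another number was 0.021, not far below its 0.10. Pairing is therefore not established, and the labels do not say what the numbers share.

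Members and lists were chosen with earlier results of these data known. Named genes were all members, the mitochondrial genes, NP15.6, Hml and the largest called change of each list; others are said to have been named after their values were seen. Sequences were not analysed here.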

Additional observations from a re-analysis of the deposited data

How the results depend on the processing

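No library scaling, filter or tool in use turned a called complex I gene negative except the removal of the length trend. The counts of 25 nuclear and 6 mitochondrial genes that rose were 25 and 6 with DESeq2 size factors and with mitochondrial genes left out of scaling, 24 and 6 with DESeq2, 23 and 6 without a filter (ND-18 missed the threshold in both, with FDR 0.070 and 0.14, and ND-13B without a filter, 0.074), 17 and 5 with total counts, 20 and 5 with the length trend removed, 28 and 6 with the replicate block, 20 and 2 with both block and length, and 6 and 2 at 2-fold or more. Leaving out 1 library gave 19 to 29 nuclear and 5 to 7 mitochondrial genes, and none called lower. With the block and length together mt:ND3 (0.91, FDR 0.080), mt:ND1 (0.70, FDR 0.063), mt:ND4 and mt:ND6 were not called. Total counts gave negative values for ND-SGDH (-0.052) and ND-49 (-0.059). The length trend removed gave ND-SGDH -0.18, ND-24 -0.019, ND-18 -0.11, ND-B14 -0.17, ND-13B -0.16 and ND-MWFE -0.091, and with the replicate block as well -0.18, -0.017, -0.11, -0.18, -0.16 and -0.094 in the same order. The cause of these changes was not tested. The nuclear genes of complexes II to V and cytochrome c that rose numbered 27, or 21 with total counts, 21 with the length trend removed, 22 with block and length and 3 at 2-fold or more, and those that fell numbered 2, or 0 at 2-fold or more, 1 without a filter, 3 with the length trend removed, 4 with block and length, and 0 to 1 with a library left out. The difference in the log2 ratio of mitochondrial to nuclear counts (0.20) was 0.56 with medians, 0.20 without mt:ND4L, 0.20 as a mean over the replicate block's pairs, and -0.03 to 0.40 with 1 library left out. Over all genes, total counts gave 1456 higher calls among those called (33.2%), against 49.4% with TMM. mt:ND4L, with 121 to 342 counts per library, had the widest error of the 39 genes (SE 0.36), and a difference of its size did not pass the test.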

Other observations

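Genes that maintain and express mitochondrial DNA did not move together. Of 13 tested, 3 rose and 4 fell in prepupae (median log2 fold change -0.19), shares near those over all tested genes (26.6% rose and 27.3% fell). bsf, which binds mitochondrial RNA, had the largest change of the list, with 56.1, 54.4 and 69.7 CPM in prepupae and 143, 120 and 153 CPM in larvae (-1.21 ± 0.14, FDR 0.00013, edgeR). The other 3 that fell were mtDNA-helicase, which unwinds mitochondrial DNA (-1.08), the transcription factor mtTFB2 (-0.65) and the mitochondrial RNA polymerase mtRNApol (-0.59). The 3 that rose were SLIRP2 (1.08), mTTF, a transcription termination factor (0.43), and TFAM, which packages mitochondrial DNA (0.33). mtTFB2, mtRNApol, TFAM and mTTF lost their calls in at least 1 fit with a library left out (highest FDR 0.069, 0.064, 0.11 and 0.057), as did mtRNApol and TFAM with the length trend removed (FDR 0.25 and 0.16) and TFAM and mTTF with total counts (FDR 0.35 and 0.12). Calls were also gained: mtSSB fell with the length trend removed (-0.71, FDR 0.0030) and Suv3 fell with total counts (-0.41, FDR 0.039). All but bsf were named after their values were seen.

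Of 8 genes known to regulate nuclear respiratory genes in flies or through their mammalian counterparts, 4 fell and 4 were not called (median -0.59), against 27.3% of all tested genes that fell. Myc, a growth-promoting transcription factor, had 3.99, 3.02 and 3.57 CPM in prepupae and 21.9, 6.54 and 27.7 CPM in larvae (-2.41 ± 0.45, FDR 0.0016). srl, the fly PGC-1 coactivator, had 8.04, 5.74 and 7.98 CPM in prepupae and 34.4, 24.3 and 44.1 CPM in larvae (-2.24 ± 0.23, FDR 6.6e-05). cnc (-1.11) and foxo (-0.79) also fell; srl, cnc and foxo were named after their values were seen. Of 12 genes of the TCA cycle and pyruvate entry, which supplies NADH to complex I, 4 rose and 4 fell (median -0.0028), against 26.6% and 27.3% of all tested genes, with ScsbetaG the largest at 0.91. With the length trend removed 5 rose and 2 fell.

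The counts of the mitochondrial genes split in larval replicate 3. It was the lowest larval library for mt:ND1, mt:ND3, mt:ND4 and mt:ND5 and for mt:CoI (1594 CPM against 2265 and 2771). The same held for mt:Cyt-b (518 CPM there), mt:CoII (531), mt:CoIII (1001) and mt:ATPase6 (199). It was the highest for mt:ND2, mt:ND4L and mt:ND6 and for mt:ATPase8 (17.5 CPM against 8.72 and 8.76). mt:ND4 and mt:ND4L, which lie side by side on the same strand, went opposite ways. What part the counting of adjacent genes had in this split was not tested.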
